A study of Homo sapiens with 4 samples.

Results

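The kinesin motor genes were examined in RNA-seq data of HaCaT cells, an immortalized line of human keratinocytes, transfected by Lipofectamine with 200 pmol of siRNA against ALKBH5 (siALKBH5), an enzyme that removes the m6A mark from RNA, or with a negative control siRNA (siControl). A gene was taken as a kinesin when it was annotated as protein-coding and its symbol began with KIF and a number, or with KIFC and a number. The rule matched 43 of the 58735 listed genes. KIF1BP was set apart because it encodes a protein that binds kinesins and is not a motor, which left 42 kinesin genes. There were 2 libraries in each group, of 16017502 to 18837807 counts on genes, and all 4 came from the same line, labelled WT in siControl and ALKBH5 knockdown in siALKBH5, with no difference given but the siRNA. The labels do not say whether the libraries of a group came from separate cultures, so the p-values below measure the spread between these libraries, which may be technical. The counts of the libraries of a group differed by more than sampling noise, with a chi-square per degree of freedom of 1.76 for siControl and 1.89 for siALKBH5, and each library was counted as a sample. The labels do not name the siRNA sequence used.

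Kinesins are motor proteins that hydrolyse ATP to walk along microtubules or to take microtubules apart. Mitotic kinesins build the spindle, move chromosomes and complete cytokinesis, and most of them are made mainly in G2 and M phase. Transport kinesins carry vesicles, organelles and RNA in cells that divide and in cells that do not, and others serve the primary or motile cilium. In the epidermis, dividing cells lie mainly in the basal layer. The 42 genes were divided by their best known role into 14 mitotic kinesins, 17 transport kinesins, 6 kinesins of the cilium and Hedgehog signalling, and 5 others.

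After transfection with ALKBH5 siRNA, transcripts of the mitotic kinesins rose together, and those of the transport kinesins went in both directions, most of them by smaller amounts. All 12 mitotic kinesins with enough counts to be tested were higher in siALKBH5, at 151% to 189% of the siControl level. The classes were drawn up with earlier results of these data known. KIF2A, which is used both in mitosis and in resting cells, was placed among the others and stood at 113%. Of the 12 transport kinesins tested, 2 were higher (KIF3C and KIF1B), 3 were lower (KIFC2, KIF3B and KIF13A) and 7 were not called. These calls use edgeR's quasi-likelihood test with an adjusted p under 0.05. By the same rule 19.3% of the 15075 genes tested were higher and 17.3% were lower, so that the 2 higher and 3 lower transport kinesins are close to the background, and the mitotic kinesins are not.

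ALKBH5 itself, the targeted gene, gave 1512 and 1576 counts in siControl against 956 and 816 in siALKBH5, so that 55.5% of the control level was left. The keratinocyte markers KRT5, KRT14, KRT15, KRT17, TP63, DSG3, COL17A1 and ITGB4 were all present, with at least 4197 counts in every library. They also differed between the groups, with KRT5 at 160% and KRT14 at 117% of the siControl level called higher, KRT15 at 71.8% called lower, KRT17, TP63 and ITGB4 at 93.9% to 96.0% called lower but not without some single libraries, and DSG3 and COL17A1 not called. Their part in the kinesin results was not tested. Of 7 markers of other cell types, COL1A2, PDGFRB and DES were at 0 in all libraries, PTPRC and PECAM1 did not exceed 2 counts, MLANA had 3 to 13 and COL1A1 had 267 to 310. The mitochondrial share of counts was 10.2% in each library of siControl, against 9.63% and 9.64% with siALKBH5. The part of this share was not tested either.

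Windows of the promoters, chosen after the search for motif words, are shown because most mitotic kinesins carry a pair of short words there that few transport kinesins carry. The CHR (cell cycle genes homology region) is a word bound by the MuvB complexes, which silence cell cycle genes in resting cells and activate them in G2, and CCAAT is the word bound by the factor NF-Y. RefSeq promoter windows of 300 bases, from 250 bases before to 50 bases after the annotated start on GRCh38.p14, were available for 34 of the 42 genes. They were searched on both strands for TTTGAA (CHR), CCAAT and GCGGGAA (an E2F word), which can share at most an end letter with each other. In the windows below capitals mark the CHR and CCAAT words, which read TTCAAA and ATTGG where they lie on the opposite strand.
KIF11, chr10:92593060-92593129, plus strand: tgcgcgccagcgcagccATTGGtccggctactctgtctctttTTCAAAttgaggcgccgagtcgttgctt
KIF4A, chrX:70290034-70290103, plus strand: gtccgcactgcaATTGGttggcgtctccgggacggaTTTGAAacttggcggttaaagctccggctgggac
KIF23, chr15:69414279-69414308, plus strand: gcgctgATTGGcccgTTTGAAatgcgccag
KIF18A, chr11:28108157-28108186, minus strand: gctgaggaaagtggcttgggTTTGAAtatt
KIF15, chr3:44761747-44761776, plus strand: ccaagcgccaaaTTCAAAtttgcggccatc
KIFC1, chr6:33391813-33391842, plus strand: ggtggccgttggaaTTCAAAagtggcgggt
KIF20A, chr5:138179032-138179061, plus strand: gcttccctatctgATTGGccgaacgaacgc
KIF3B, chr20:32277561-32277630, plus strand: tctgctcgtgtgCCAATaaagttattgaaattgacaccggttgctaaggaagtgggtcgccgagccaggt
KIF5B, chr10:32056476-32056575, minus strand: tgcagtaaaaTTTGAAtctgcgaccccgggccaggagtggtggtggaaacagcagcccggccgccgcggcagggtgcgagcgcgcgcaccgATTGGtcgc

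The first 6 windows are of mitotic kinesins with a CHR word, KIF20A is a mitotic kinesin without one, and KIF3B and KIF5B are transport kinesins. In KIF11 and KIF4A the CCAAT word begins at base -53 and -58 from the start and the CHR word at -28 and -34. In KIF23 both words lie within 30 bases, whereas in KIF5B the CHR word begins at -140 and the CCAAT word at -59. The windows are placed by RefSeq starts, and 6 of them (KIF4A, KIF23, KIF18A, KIF15, KIFC1 and KIF20A) overlap an exon of some GENCODE 29 transcript.

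Counted by gene, 10 of the 14 mitotic kinesins had a CHR word in their window, 11 had a CCAAT word and 9 had both. Of the 12 transport kinesins with a window, 1 (KIF5B) had a CHR word and 4 had a CCAAT word. Of all 27305 genes with a RefSeq window, counted in the same way, 18.2% had the CHR word, 39.7% the CCAAT word and 8.37% both. Of all windows, 15.2% held the CHR word, 34.6% the CCAAT word and 6.55% the E2F word. The E2F word was found in 0 of the 14 mitotic kinesins, in KIF17 and KIF1C among the transport kinesins and in KIF25, counts too small to set apart from its share of 7.82% over all genes. The CHR words of the mitotic kinesins lay near the start, between bases -55 and 31 counted from it, as the map of motif words shows. These are matches of letters and not sites shown to be bound, and of the 10376 genes tested that have a window, 25.4% of those with the CHR word and 21.1% of those without it were called higher.

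**Figure D1:**
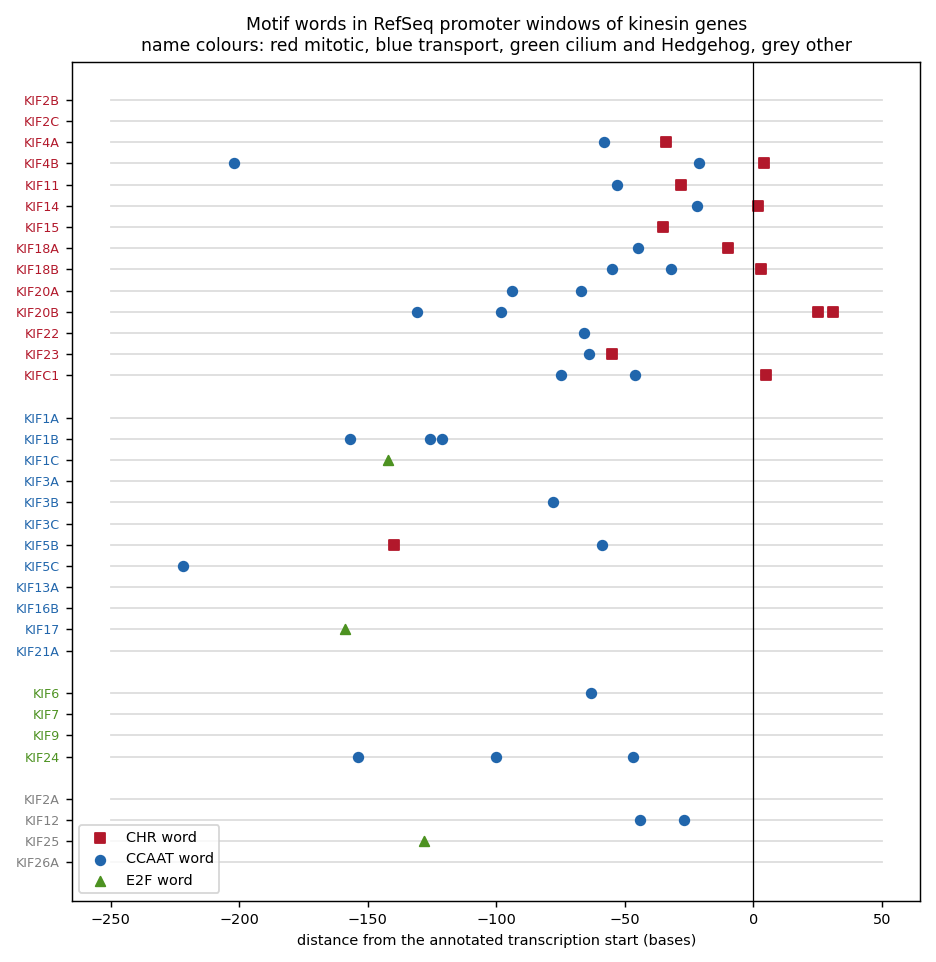
Position of CHR (red squares), CCAAT (blue circles) and E2F (green triangles) words on either strand in the RefSeq promoter windows of 34 kinesin genes, by distance in bases from the annotated start (vertical line). Grey lines span each window, several windows of a gene are drawn on 1 line, and CHR words are seen in 10 of the 14 mitotic kinesins and in 1 of the other genes (KIF5B).

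Of the 42 kinesin genes, 31 passed the expression filter of edgeR. The 11 that did not were KIF2B and KIF4B among the mitotic kinesins, KIF1A, KIF5A, KIF5C, KIF17 and KIF21B among the transport kinesins, KIF19, KIF12, KIF25 and KIF26B. KIF1A, KIF2B, KIF12, KIF19 and KIF25 had 0 counts in all 4 libraries, where a count of 0 allows a level of up to 0.159 to 0.187 CPM (counts scaled to library size in the usual way), taking 3 counts as the limit and covering counting error only. The other 6 had at most 11 counts in a library. The 11 counts were those of KIF26B in siControl replicate 2, against 0 in siControl replicate 1 and 3 and 1 in siALKBH5. KIF1A, KIF5A and KIF5C are known mainly from neurons, and KIF2B and KIF4B from testis.

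Levels of different genes were compared as RPKM, the CPM after TMM scaling divided by the gene length in kilobases. In the siControl libraries the kinesin with the highest level was KIF20A at 27.8 ± 0.798 RPKM (SD, n = 2), followed by the transport kinesins KIF1C at 25.3 ± 0.125, KIF5B at 24.4 ± 0.469 and KIF3B at 20.7 ± 0.524. KIF1C and KIF5B, neighbours in this order, differed by less than 1 RPKM. KIF22, KIF2C and KIFC1 formed the next group, at 12.8 ± 0.263, 12.6 ± 0.0613 and 12.1 ± 0.0268 RPKM (SD, n = 2), and KIF22 and KIF2C did not differ beyond their spread. In siALKBH5, KIF20A reached 48.9 ± 0.274 RPKM, and KIF2C at 23.3 ± 0.0137, KIFC1 at 22.2 ± 0.554, KIF22 at 20.6 ± 0.0813 and KIF4A at 19.1 ± 0.192 stood above KIF3B, which was at 17.6 ± 0.372. Among the 42 genes KIF3B moved from rank 4 to rank 8.

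**Figure D2:**
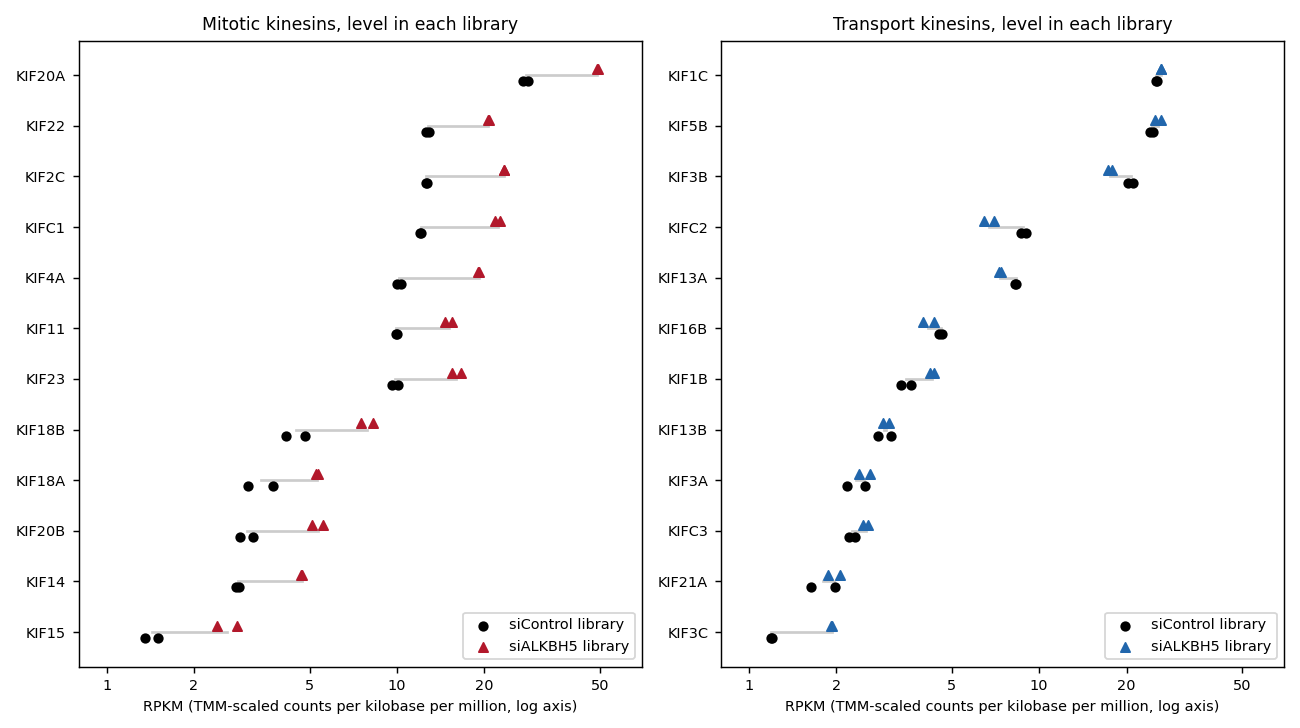
Level of the 12 mitotic (left) and 12 transport (right) kinesins tested, in RPKM on a log axis, with 1 symbol per library (black circles siControl, coloured triangles siALKBH5) and a grey line between the group means. Both siALKBH5 libraries lie to the right of both siControl libraries for all 12 mitotic kinesins, and for 5 of the 12 transport kinesins. They lie to the left for 4 of the 12 transport kinesins. Of all genes tested, 32.8% lie to the right and 33.5% to the left in this way.

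KIF20A (ENSG00000112984, chromosome 5 of GRCh38 from 138178719 to 138187715, plus strand), which brings the chromosomal passenger complex to the spindle midzone, gave 1737 and 2020 counts in siControl against 3631 and 3174 in siALKBH5. Both siALKBH5 libraries were above both siControl libraries after scaling, at 194 and 193 CPM against 108 and 112. On the log2 scale it rose by 0.81, with a standard error (SE) of 0.04 (adjusted p = 1.3e-18 by the edgeR quasi-likelihood test), the largest in relation to its error among the kinesins. This kinesin has CCAAT words but no CHR word in its promoter window.

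The fold changes of the 12 mitotic kinesins lay between 0.60 and 0.92 on the log2 scale, on which all further changes are given, with a median of 0.81, whereas the median of all genes tested was -0.0081. Both siALKBH5 libraries stood above both siControl libraries in all 12, which holds for 32.8% of all genes tested. None of the 12 reached a fold change of 2, and 1.62% of the genes tested were called higher with at least that fold change. The 12 were called in every alternative fit that kept all 4 libraries. Most of these fits gave KIF20A a smaller adjusted p than the main fit, so keeping a call in them is a weak check. With 1 library left out, the fold changes of the 12 stayed between 0.50 (KIF18A) and 0.97 (KIF15). In separate assays of HaCaT cells with ALKBH5 knocked down, the authors reported proliferation and cell cycle phases as not significantly changed. In bulk RNA, more cells in G2 and M phase and more RNA per such cell cannot be told apart. MKI67, a marker of proliferating cells, moved with them, from 3143 and 3573 counts in siControl to 6805 and 6029 in siALKBH5 (log2 fold change 0.89, SE 0.03), and its part in the rise of the kinesins was not tested.

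Among the kinesins that set up the bipolar spindle, KIF11 (ENSG00000138160, chromosome 10 from 92593286 to 92655395), which slides antiparallel microtubules to push the poles apart, gave 776 and 874 counts in siControl against 1408 and 1169 in siALKBH5. Its log2 fold change of 0.60 (SE 0.06, adjusted p = 1.1e-10 by the edgeR quasi-likelihood test) was the lowest of the 12. KIF15, which can take over from KIF11, was the least abundant mitotic kinesin tested, with 115 and 143 counts in siControl against 237 and 244 in siALKBH5. It rose by 0.86 (SE 0.13). KIFC1 (ENSG00000237649, chromosome 6 from 33391536 to 33409924), a minus-end-directed motor that gathers microtubules into poles, gave 649 and 727 counts in siControl against 1412 and 1201 in siALKBH5, a log2 fold change of 0.88 (SE 0.06). KIFC1 shares 12.7% of its exon bases with the pseudogene RPL12P1 on the opposite strand. The kit is not described as marking strand, so reads of this overlap cannot be assigned.

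The kinesins that act at kinetochores and chromosome arms rose by similar amounts. KIF2C (ENSG00000142945, chromosome 1 from 44739818 to 44767767), a depolymerase that corrects faulty attachments, gave 743 and 824 counts in siControl against 1588 and 1398 in siALKBH5, with a log2 fold change of 0.89 (SE 0.05, adjusted p = 2.0e-15 by the edgeR quasi-likelihood test). Its scaled values were 46.1 and 45.8 CPM against 85.0 and 85.0 CPM, so the libraries of each group were nearly equal. KIF18A, which dampens the oscillation of chromosomes at the metaphase plate, gave 281 and 258 counts in siControl against 457 and 410 in siALKBH5 and rose by 0.64 (SE 0.10). KIF18B, its relative on astral microtubules, had 362 and 346 counts against 652 and 631 and rose by 0.81 (SE 0.08). The siControl libraries lay further apart for KIF18A and KIF18B, at 17.4 and 14.3 CPM and at 22.5 and 19.2 CPM. KIF22, a chromokinesin that pushes chromosome arms away from the poles, had 899 and 975 counts against 1658 and 1469 and rose by 0.70 (SE 0.05). It shares 13.0% of its exon bases with a gene on the opposite strand.

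KIF4A (ENSG00000090889, chromosome X from 70290090 to 70420832), a chromokinesin that also shapes the central spindle, had the largest rise of the mitotic class. It gave 752 and 813 counts in siControl against 1629 and 1415 in siALKBH5, or 189% of the control level, with a log2 fold change of 0.92 (SE 0.05, adjusted p = 8.5e-16 by the edgeR quasi-likelihood test). Its intronless copy KIF4B, on chromosome 5, gave 1 and 0 counts in siControl against 3 and 0 in siALKBH5. Of the 50-base words of the KIF4A transcripts, 13.4% also occur in KIF4B, so reads from there could be assigned to either or to none. Ratios of gene pairs within a library were taken for pairs chosen after the values of the members were seen, and they carry no test. The ratio of KIF4A to KIF11 per kilobase was 1.04 and 0.997 in the siControl libraries against 1.24 and 1.30 in the siALKBH5 libraries. The groups did not overlap in this ratio. Its members are those with the largest and the smallest rise, so its direction was fixed by the choice.

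The kinesins of cytokinesis followed the same direction. KIF23 (ENSG00000137807, chromosome 15 from 69414246 to 69448427), the motor of centralspindlin, gave 1067 and 1141 counts in siControl against 1901 and 1792 in siALKBH5 and rose by 0.70 (SE 0.05). Its partner in centralspindlin, RACGAP1, rose by 0.68 (SE 0.04), and the ratio of KIF23 to RACGAP1 per kilobase was 0.603 and 0.565 in siControl and 0.571 and 0.613 in siALKBH5. The groups overlapped in this ratio, and the difference of their means on the log2 scale, 0.020, was smaller than the spread within either group. KIF14, which works at the midbody, had 327 and 375 counts against 637 and 563 and rose by 0.73 (SE 0.08). KIF20B, which acts late in cytokinesis, had 353 and 354 counts against 710 and 576 and rose by 0.82 (SE 0.08). The ratio of KIF20A to KIF20B per kilobase was 8.52 and 9.88 in siControl and 8.85 and 9.54 in siALKBH5, and the groups overlapped.

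The 3 mitotic kinesins tested that had no CHR word in their window, KIF2C, KIF20A and KIF22, rose by 0.89, 0.81 and 0.70. These values lie within the range of the 9 with the word, from 0.60 for KIF11 to 0.92 for KIF4A. Only the exact letters TTTGAA were searched, within these windows, and the part of the word in the rise was not tested.

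CENPE, a kinetochore kinesin whose symbol falls outside the naming rule, gave 228 and 242 counts in siControl against 534 and 461 in siALKBH5 and rose by 1.04 (SE 0.09). STARD9, another kinesin outside the rule, had 12 and 16 counts against 12 and 1 and was not called at -1.14 (adjusted p = 0.15 by the edgeR quasi-likelihood test). Its value rests on single libraries, at -3.60 without siALKBH5 replicate 1, where it was called (adjusted p = 0.018), and at -0.35 without siALKBH5 replicate 2. Of all genes tested, 19.3% were higher and 17.3% lower, with a median log2 fold change of -0.0081. Of 17 genes for spindle and cytokinesis partners of the kinesins, 15 were higher, 0 were lower and 2 were not called. Their median was 0.73, and the list was chosen with earlier results of these data known. The largest rise was that of BIRC5 at 1.13, a passenger complex subunit, and the smallest among those called was that of NUSAP1 at 0.40. The 2 not called were NUMA1, which organizes spindle poles, at 0.0017 with 3983 to 4625 counts, and PRC1, the partner of KIF4A, at 0.28 with only 19 to 28 counts. PRC1 shares 58.4% and NUSAP1 62.2% of their exon bases with another gene on the same strand, so their counts are uncertain. NUSAP1 lost its call without siControl replicate 2, where it was at 0.25 (adjusted p = 0.29 by the edgeR quasi-likelihood test), and without siALKBH5 replicate 2 (adjusted p = 0.087).

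**Figure D3:**
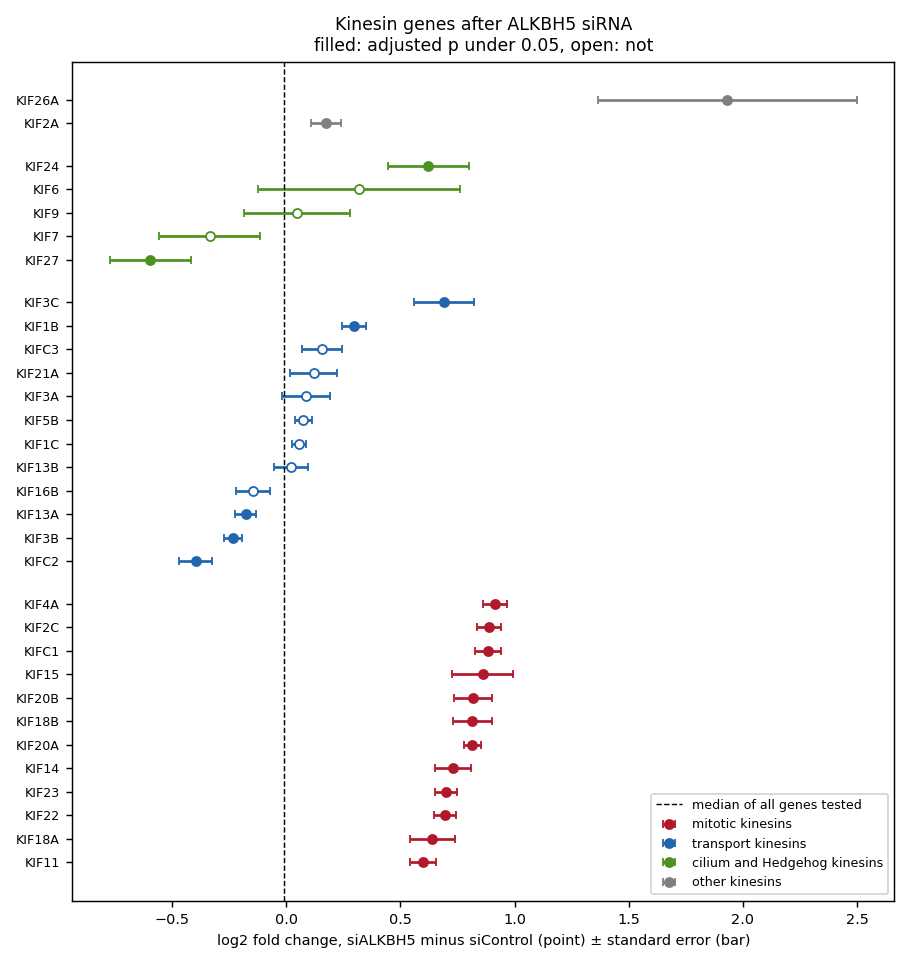
Log2 fold change of the 31 kinesin genes tested, siALKBH5 minus siControl, with SEs, by class and by size, filled where the adjusted p is under 0.05, beside the median of all genes tested (dashed line at -0.0081). The 12 mitotic kinesins lie between 0.60 and 0.92, the transport kinesins between -0.40 and 0.69.

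The transport kinesins had a median log2 fold change of 0.066, which was 0.026 without siControl replicate 1 and 0.037 without siALKBH5 replicate 2. The conventional kinesin KIF5B (ENSG00000170759, chromosome 10 from 32009010 to 32056431), a general carrier of organelles and vesicles, gave 2279 and 2615 counts in siControl against 2881 and 2431 in siALKBH5. Its log2 fold change was 0.07 (SE 0.04, adjusted p = 0.12 by the edgeR quasi-likelihood test). KIF1C, a carrier of vesicles and integrins, had the most counts of any kinesin in siControl, 3486 and 3920, with 4217 and 3718 in siALKBH5, and its log2 fold change was 0.06 (SE 0.03, adjusted p = 0.16). For both, a change of the size seen in the mitotic kinesins lies many SEs away. The light chains that link kinesin-1 to cargo differed: KLC2 rose by 0.32 (SE 0.08) and KLC3 by 0.48 (SE 0.10), whereas KLC1 at 0.02 and KLC4 at -0.04 were not called. The adaptor KIF1BP was called higher at 0.25 (adjusted p = 0.011) but was at 0.15 without siALKBH5 replicate 2 (adjusted p = 0.25) and not called without siControl replicate 1 (adjusted p = 0.051), by the edgeR quasi-likelihood test. KLC1 shares 40.6% of its exon bases with other genes, mainly XRCC3 on the opposite strand.

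Kinesin-2 is a complex of KIF3A with KIF3B or KIF3C and the adaptor KIFAP3 that drives transport in the cilium and the cytoplasm. Its subunits moved apart. KIF3B (ENSG00000101350, chromosome 20 from 32277664 to 32335011) gave 2069 and 2229 counts in siControl against 1975 and 1793 in siALKBH5, which after scaling is 128 and 124 CPM against 106 and 109 CPM, and its log2 fold change was -0.23 (SE 0.04, adjusted p = 2.3e-05 by the edgeR quasi-likelihood test). KIF3C (ENSG00000084731, chromosome 2 from 25926596 to 25982749), at 123 and 138 counts in siControl against 232 and 202 in siALKBH5, rose by 0.69 (SE 0.13, adjusted p = 8.3e-05), the only transport kinesin with a rise inside the range of the mitotic class. The ratio of KIF3C to KIF3B per kilobase was 0.0567 and 0.0590 in the siControl libraries against 0.112 and 0.107 in the siALKBH5 libraries, a difference of 0.92 in the mean log2 ratio. The groups did not overlap, which follows from the separate values, as KIF3C was higher and KIF3B lower in both siALKBH5 libraries. KIF3C remained the much less abundant subunit. KIF3A, with 241 to 310 counts, and KIFAP3, with 678 to 821, had log2 fold changes of 0.09 and 0.13 and were not called. KIFAP3 was at 0.23 and called without siControl replicate 1 (adjusted p = 0.027 by the edgeR quasi-likelihood test) and at 0.039 without siControl replicate 2.

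Among the kinesin-3 motors, KIF1B, which carries mitochondria and vesicles, rose by 0.30 (SE 0.05), from 956 and 1151 counts in siControl to 1435 and 1229 in siALKBH5. The scaled values were 59.3 and 64.0 CPM against 76.8 and 74.7 CPM, which do not overlap. Such a separation upwards was found for 32.8% of all genes tested. KIF13A, a motor of recycling endosomes, had 1475 and 1672 counts against 1507 and 1358 and fell by 0.18 on the log2 scale (SE 0.05, adjusted p = 0.0020 by the edgeR quasi-likelihood test). With DESeq2 the adjusted p of KIF13A was 0.0502, just past the threshold. Its paralogue KIF13B at 0.02 and the early endosome motor KIF16B at -0.14 were not called. In KIF16B both siALKBH5 libraries, at 30.7 and 33.5 CPM, were below both siControl libraries, at 34.9 and 35.8 CPM, a separation found for 33.5% of all genes tested.

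KIFC2 and KIFC3 are motors with a C-terminal head that serve outside mitosis. KIFC2 (ENSG00000167702, chromosome 8 from 144466043 to 144474202), known from dendrites, gave 619 and 722 counts in siControl against 579 and 471 in siALKBH5 and fell by 0.40 on the log2 scale (SE 0.07, adjusted p = 4.8e-05 by the edgeR quasi-likelihood test). It shares 17.8% of its exon bases with FOXH1 on the opposite strand. KIFC3, which moves towards minus ends at epithelial junctions, had 359 and 382 counts against 460 and 392 and was not called at 0.16 (adjusted p = 0.16). KIF21A, a brake on microtubule growth at the cell cortex, was not called at 0.12 with 266 to 359 counts.

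The kinesins of the cilium and Hedgehog signalling were expressed at low levels, none above 1.27 RPKM in siControl. KIF24, which restrains the growth of cilia in cycling cells, gave 87 and 79 counts in siControl against 161 and 104 in siALKBH5 and rose by 0.62 (SE 0.18, adjusted p = 0.0055 by the edgeR quasi-likelihood test). The call rests on single libraries, since its log2 fold change was 0.38 and its adjusted p 0.19 without siALKBH5 replicate 1, and its adjusted p was 0.065 without siControl replicate 2 and 0.083 with DESeq2. KIF27, a relative of the Hedgehog regulator KIF7, had 101 and 122 counts against 88 and 64 and fell by 0.60 on the log2 scale (SE 0.18, adjusted p = 0.0079). Its adjusted p was 0.056 without siControl replicate 2, 0.082 without siALKBH5 replicate 2 and 0.10 with DESeq2, and 26.7% of its 50-base words occur in other genes. KIF7, with 51 to 76 counts, had a log2 fold change of -0.34 (SE 0.22, adjusted p = 0.25). KIF6, with 10 to 22 counts, and KIF9, with 51 to 63, were not called at 0.32 and 0.05. The value of KIF6 ranged from 0.032 without siControl replicate 1 to 0.71 without siControl replicate 2.

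Of the remaining kinesins, KIF2A, a depolymerase used both in mitosis and in resting cells, gave 684 and 749 counts in siControl against 908 and 759 in siALKBH5, a log2 fold change of 0.17 (SE 0.06, adjusted p = 0.031 by the edgeR quasi-likelihood test). It lost the call with DESeq2 at an adjusted p of 0.18, with scaling by library size only at 0.063, and at 0.065, 0.15 and 0.23 without siControl replicate 1, siControl replicate 2 and siALKBH5 replicate 1. Its exons overlap those of IPO11 on the same strand over 9.0% of their bases. The ratio of the mitotic depolymerase KIF2C to KIF2A per kilobase went from 1.42 and 1.44 to 2.29 and 2.41, with no overlap of the groups. This pair was chosen after its values were seen, with KIF2C at 0.89 and KIF2A at 0.17, so its direction was fixed by the choice. KIF26A, an atypical kinesin known from growth factor signalling in enteric neurons, was the only one of the 31 genes tested under the naming rule past a fold change of 2, with a log2 fold change of 1.93 (SE 0.57, adjusted p = 0.0073). It rests on 5 and 4 counts in siControl against 16 and 20 in siALKBH5, DESeq2 gave it no adjusted p, and the adjusted p was 0.10 without siControl replicate 2 and 0.14 without siALKBH5 replicate 2.

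Summed over all members, the kinesins took 0.138% of the counts in each siControl library against 0.172% and 0.171% in the siALKBH5 libraries. Per kilobase of gene length, mitotic kinesins made up 48.5% and 47.9% of all kinesin counts in siControl and 61.8% and 62.0% in siALKBH5. Transport kinesins made up 46.1% and 46.7% in siControl and 33.7% and 33.8% in siALKBH5. The ratio of mitotic to transport kinesins, which does not depend on the scaling between libraries, was 1.05 and 1.03 in siControl and 1.84 and 1.84 in siALKBH5 per kilobase, and 0.621 and 0.602 against 1.05 and 1.05 in plain counts. On the log2 scale the plain ratio was -0.71 ± 0.031 (SD, n = 2) for siControl and 0.074 ± 0.00025 (SD, n = 2) for siALKBH5, a difference of 0.78 that is larger than the spread within either group. No p is given for it, because 2 libraries against 2 allow no permutation p under 0.05.

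**Figure D4:**
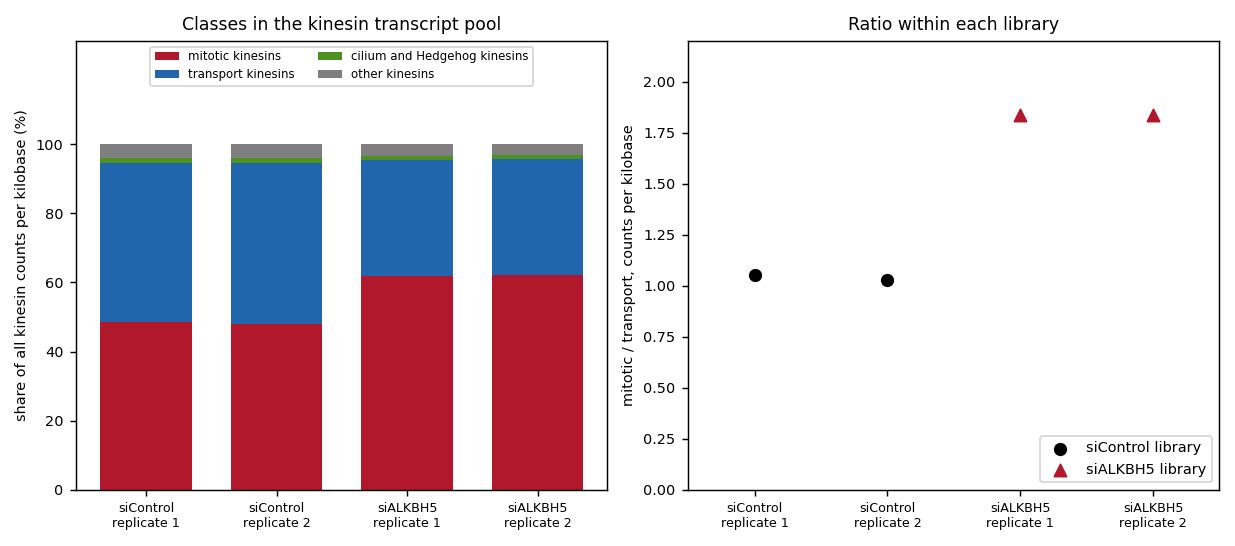
Left, share of each class in all kinesin counts per kilobase of gene length, in percent, for each library. Right, the ratio of mitotic to transport kinesins per kilobase in each library, which was 1.05 and 1.03 in siControl (black circles) and 1.84 in both siALKBH5 libraries (red triangles).

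The cargo side and the opposing motor were examined for comparison. Of 10 light chain and adaptor genes, 3 were higher, 2 were lower and 5 were not called, and the largest change among those called was that of KLC3 and the smallest that of TRAK2, a mitochondrial adaptor, at -0.23. Of 16 genes of cytoplasmic dynein and dynactin that were tested out of 17, 5 were higher, 2 were lower and 9 were not called, with a median of 0.037. Of all genes tested, 19.3% were higher and 17.3% lower. DYNC1H1, the heavy chain, rose by 0.26 (SE 0.03). The largest change among those called was that of DYNLRB2 at -1.31, on 25 and 16 counts in siControl against 8 and 9 in siALKBH5, and the smallest was that of DYNLL2 at 0.13. DYNLRB2 was at -0.86 without siControl replicate 1, and it lost its call there and without either siALKBH5 library. DYNLL2 lost its call without siControl replicate 1 and without siALKBH5 replicate 1.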

How the data were processed

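Poly-A RNA of HaCaT cells was sequenced by the authors on an Illumina NovaSeq instrument. The submitters' processing notes list hg38, CASAVA, HISAT2 2.0.5, featureCounts 1.5.0-p3 and DESeq2 1.20.0, and the library kit is not described as strand-specific. The authors deposited raw read counts per gene without normalization, in 1 table per replicate, together with FPKM and the results of their comparisons (fold changes and p-values), which were not used. Gene coordinates of all members are those of GENCODE 29.

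R 4.3.3 and edgeR 4.0.16 were used on the counts of all genes, with TMM factors from genes kept by filterByExpr, a quasi-likelihood fit (glmQLFit, glmQLFTest) without covariates, and Benjamini-Hochberg adjustment over 15075 genes. Replicates varied little, with a common biological coefficient of variation of 0.0253. The standard error is the log2 fold change divided by the square root of F. The steps were tested on simulated data, in which edgeR recovered the share of changed genes first required and DESeq2 recovered fewer, so the requirement was lowered. Alternatives were DESeq2 1.42.0, other scalings and filters, the replicate block and each library left out. All kinesins were named. The members and lists were chosen with earlier results of these data known. A planned search of protein sequences was not made, and chromosome 8 promoters were not used here.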

Additional observations from a re-analysis of the deposited data

How the results depend on the processing

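In every alternative that kept all 4 libraries, 12 mitotic kinesins were called higher, 0 of them past a fold change of 2, and 2 transport kinesins were called higher. Of the 31 kinesins tested, 17 were higher and 4 lower in the main fit, and 12 of the 17 were mitotic. The shares over all genes tested were 19.3% and 17.3% in that fit. With DESeq2 the lower kinesins numbered 2 instead of 4 and the higher ones 14 instead of 17, and KIF6 and KIF26A got no adjusted p. The shares of all genes called with DESeq2 are not given here. Leaving out 1 library at a time, the median log2 fold change ranged from 0.74 to 0.79 for the mitotic kinesins and from 0.026 to 0.078 for the transport kinesins, and the difference in the log2 ratio of mitotic to transport counts from 0.76 to 0.81. That difference was 0.82 per kilobase, and 0.81 without KIF1C, which was chosen after seeing the data because KIF1C and not KIF5B held the most counts, so the planned sum without KIF5B was not run. The cause of these shifts was not tested. Among kinesins that were not called, the log2 fold change turned in sign when 1 library was left out for KIF3A (from -0.0057 without siControl replicate 1 to 0.19 without siControl replicate 2), KIF21A (from -0.0034 to 0.27 without the same libraries), KIF13B (from -0.054 without siControl replicate 2 to 0.095 without siControl replicate 1, and -0.0094 without siALKBH5 replicate 2) and KIF9 (from -0.022 without siControl replicate 2 to 0.11 without siControl replicate 1, and -0.017 without siALKBH5 replicate 1). KIF13B was also at -0.0021 with library size only. Of the other lists, KLC1 (-0.018 to 0.055), TRAK1, DYNC1LI1, DYNLL1 and DCTN6, none of them called, also turned in sign. With the replicate block, 17 kinesins were higher, 4 lower, 12 mitotic kinesins higher, and the medians were 0.81 and 0.066. Libraries of the same replicate number are linked by that number and by a shared deposited table. The correlation of their deviations across genes was 0.033. Much of these deviations is counting noise, so this value cannot show whether such libraries shared a culture or batch. Low counts limit the calls for KIF24, KIF27 and KIF26A.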
